A study of Mus musculus with 8 samples.

Results

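The genes of the proteasome were described across sorted cells of the mouse intestinal crypt. Members were the genes whose symbol begins with Psm, then a letter from a to g and a number, and which had a probe set naming that gene alone. Of 18193 genes measured, 49 met this rule, and each was read from whichever of its single-gene probe sets had the highest mean on the 6 EphB2 arrays. A pair of them, Psmc3ip and Psme3ip1, are not proteasome components and are named for a protein they bind, which leaves 47 subunits and cofactors. Psme2 and Psme2b share a probe set that names several genes and were not measured here.

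The proteasome is the protease that destroys proteins tagged with ubiquitin. Its core particle is a barrel of alpha rings (Psma genes) around beta rings (Psmb genes), with the cutting sites inside. The regulatory particle caps the barrel: its base holds the ATPases (Psmc genes) that unfold substrates, and its lid and base hold further subunits (Psmd genes) that bind and strip ubiquitin. Dedicated chaperones, Psmg1 to Psmg4 for the core and Psmd5, Psmd9 and Psmd10 for the base, build the complex and leave it. In immune cells, and in other cells exposed to interferon, Psmb8, Psmb9 and Psmb10 replace the cutting subunits Psmb5, Psmb6 and Psmb7, which gives the immunoproteasome and changes the peptides offered on MHC class I molecules. The intestinal epithelium renews itself from dividing cells at the base of the crypt, so its cells differ in growth and age along the crypt.

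Cells came from the intestine of mice of strain C57BL/6 and were labelled as crypt cells. The sort on surface EphB2, a receptor whose level declines away from the crypt base, used an antibody and gave 2 arrays each of EphB2 High, EphB2 Medium and EphB2 Low cells. The sort on Lgr5, a stem cell receptor, used green fluorescence from the Lgr5-EGFP knock-in allele and gave 1 array each of Lgr5 High and Lgr5 Low cells. The labels name this allele for the Lgr5 samples alone and give no age, sex or number of animals. Nothing in them shows that replicates were separate mice, and the p-values therefore speak only of the spread among the arrays at hand. EphB2 arrays with the same number were hybridized together, here called the first and the second hybridization, and both Lgr5 arrays were hybridized together at another time. Levels are log2 expression values and differences are log2 differences, so that 1 unit is a doubling. A gene was called when limma's p, adjusted by Benjamini-Hochberg over all 18193 genes, was below 0.05.

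Of 7 measured epithelium markers, Epcam, Cdh1, Cdx2 and Krt8 were at a log2 level of 12.83 or more on all 8 arrays and did not pass between EphB2 High and EphB2 Low cells. The others differed between these groups: Cdx1 was higher by 0.73, Vil1 fell by 0.79 and Krt20 fell by 2.77 on the log2 scale, with a lowest level of 9.15 for Krt20 in the Lgr5 High array. Between EphB2 High and EphB2 Low cells, all 6 stem cell markers rose and all 7 measured enterocyte markers fell, and 4 of 5 Paneth cell markers rose while 3 of 5 goblet cell markers fell. In bulk samples of this kind, fewer cells of a type and less RNA per cell cannot be told apart. Lymphocyte markers had median log2 levels between 4.17 and 4.93 on the 8 arrays, and myeloid markers between 4.50 and 5.47.

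Start sites of 41 of the 49 genes had a sequence in RefSeq's table for build GRCm38.p6, with 44 windows that run from 250 bases before to 50 bases after a start. Those of the core chaperones Psmg1, Psmg3 and Psmg4 are printed because these genes rose together, and that of Psmb9 because it is shared with an antigen transporter gene. Capitals mark matches to the motifs given after them, and each sequence is read 5′ to 3′ on the strand of its gene.
Psmg1 (chr16:95990911-95991210, minus strand): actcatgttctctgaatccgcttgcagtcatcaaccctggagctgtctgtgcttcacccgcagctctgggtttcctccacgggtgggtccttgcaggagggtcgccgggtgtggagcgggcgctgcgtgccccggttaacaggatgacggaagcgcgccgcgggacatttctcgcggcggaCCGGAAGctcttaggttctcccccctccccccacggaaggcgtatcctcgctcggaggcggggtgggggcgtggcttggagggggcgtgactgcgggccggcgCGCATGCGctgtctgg
Psmg3 (chr5:139826845-139827144, minus strand): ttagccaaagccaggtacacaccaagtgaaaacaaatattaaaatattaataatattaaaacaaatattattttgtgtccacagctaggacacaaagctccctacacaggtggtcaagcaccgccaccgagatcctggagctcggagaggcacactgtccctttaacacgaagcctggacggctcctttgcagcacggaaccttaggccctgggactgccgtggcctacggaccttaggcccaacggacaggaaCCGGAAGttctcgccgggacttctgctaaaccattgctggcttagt
Psmg4 (chr13:34162714-34163013, plus strand): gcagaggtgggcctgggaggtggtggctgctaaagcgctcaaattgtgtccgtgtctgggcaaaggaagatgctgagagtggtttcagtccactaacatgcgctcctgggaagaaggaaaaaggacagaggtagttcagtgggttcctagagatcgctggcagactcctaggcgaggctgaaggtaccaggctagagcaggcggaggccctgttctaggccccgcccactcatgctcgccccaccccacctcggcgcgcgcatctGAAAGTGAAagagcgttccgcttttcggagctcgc
Psmb9 (chr17:34187281-34187580, minus strand): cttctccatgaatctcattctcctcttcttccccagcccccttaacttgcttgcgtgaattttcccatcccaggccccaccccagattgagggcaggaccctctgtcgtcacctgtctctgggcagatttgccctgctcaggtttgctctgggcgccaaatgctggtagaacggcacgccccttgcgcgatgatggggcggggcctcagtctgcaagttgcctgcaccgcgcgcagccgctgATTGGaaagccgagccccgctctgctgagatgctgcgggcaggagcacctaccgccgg

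Motifs were chosen after the sequences were seen and searched on both strands, counting a window once. CCGGAAG, a core bound by ETS transcription factors, was in 17 of the 44 windows (38.6%), against 8.86% of all 32851 windows of this length. It is in the printed windows of Psmg1 and Psmg3 and not in those of Psmg4 or Psmb9. Further windows that hold it include those of the ATPases Psmc1, Psmc2 and Psmc6, of the activators Psme3 and Psme4 and of Psmc3ip. GCATGCG, the centre of the nuclear respiratory factor 1 motif, was in 3 windows (6.82%), against 3.58% of all windows, and is in that of Psmg1 on both strands at once. GAAANNGAA, from the interferon-stimulated response element, was in 7 windows (15.9%), against 8.56%, and is in that of Psmg4. It is not in the windows of Psmb8, Psmb9 or Psmb10. Of the remaining motifs, TGACNNNGC, the antioxidant response element, was in 13.6% against 12.4%, the E-box CACGTG in 11.4% (5 windows) against 7.15%, and the CCAAT box, which is in the window of Psmb9, in 36.4% against 37.4%. Matches of different motifs do not overlap in the printed windows. The window of Psmb9 overlaps that of Tap1, a subunit of the peptide transporter for MHC class I, by 275 bases on opposite strands. These matches are descriptions of sequence, and binding was not measured.

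Between EphB2 High and EphB2 Low cells, the largest differences among proteasome components were those of its builders: all 4 core chaperones were more than 2-fold higher in EphB2 High cells, whereas most subunits of the finished particle differed little. With the mean of all probe sets of a gene, Psmg3 and Psmg4 were below 2-fold. In all, 11 of 49 genes rose, and 22% of all 18193 genes did. None fell, against 15.3% of all genes. An unadjusted p below 0.05 was found for 16 of the 49, none of them lower, and for 8245 of all 18193 genes. The members' median difference was 0.19, against 0.01 over all genes. Without the pair named for a partner, 10 of 47 rose. The share that rose was thus close to that of all genes. Leaving out EphB2 High replicate 2 reduced the calls to 4, and leaving out EphB2 Low replicate 2 to 7, whereas limma's variance trend gave 22. With the hybridization as a block 12 rose, against 23.8% of all genes.

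Psmg1 and Psmg2 form a pair of chaperones that starts the alpha ring. Psmg1 was at 11.30 and 11.33 in EphB2 High cells, 11.11 and 11.03 in EphB2 Medium cells, and 10.23 and 10.17 in EphB2 Low cells. It was higher by 1.12 ± 0.11 in EphB2 High than in EphB2 Low cells (2.17-fold, limma adjusted p = 0.00116), by 1.08 in the first and 1.16 in the second hybridization. Errors of differences here and below are limma's SEs, with 2 arrays in each group. Their spread is pooled over the 3 EphB2 groups and drawn towards that of all genes. The groups did not overlap, and both EphB2 Low arrays lay apart from the other 4. Psmg2 was at 11.99 and 12.11 in EphB2 High cells, 11.68 and 11.74 in EphB2 Medium cells, and 10.71 and 10.49 in EphB2 Low cells. It was higher by 1.45 ± 0.13 (2.73-fold, limma adjusted p = 0.000937), by 1.28 and 1.62 in the hybridizations. The other probe sets of Psmg2 gave 1.54 and 1.77, so that all 3 pointed the same way.

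Psmg3 and Psmg4 form the second chaperone pair, which acts on the same ring. Psmg3 was at 12.35 and 12.19 in EphB2 High cells, 12.19 and 11.83 in EphB2 Medium cells, and 11.34 and 10.61 in EphB2 Low cells. It was higher by 1.29 ± 0.26 in EphB2 High than in EphB2 Low cells (2.45-fold, limma adjusted p = 0.0119), by 1.01 and 1.57 in the hybridizations. Its EphB2 Low arrays differed by -0.72 (second minus first hybridization), the widest gap within a group among the 4 chaperones. Its second, dimmer probe set ran the other way, at -0.91, and with the mean of both probe sets the difference was 0.19 (adjusted p = 0.515). Leaving out either EphB2 High array also ended the call, with an adjusted p of 0.0634 (replicate 1) or 0.0504 (replicate 2). Psmg4 was at 10.91 and 10.68 in EphB2 High cells, 10.55 and 10.22 in EphB2 Medium cells, and 9.56 and 9.28 in EphB2 Low cells. It was higher by 1.38 ± 0.18 (limma adjusted p = 0.00246), by 1.35 and 1.40 in the hybridizations, and by 0.90 with the mean of its probe sets (adjusted p = 0.00152). All 4 core chaperones were ordered from EphB2 High through EphB2 Medium to EphB2 Low in every array, an order that 17.7% of all genes had.

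**Figure D1:**
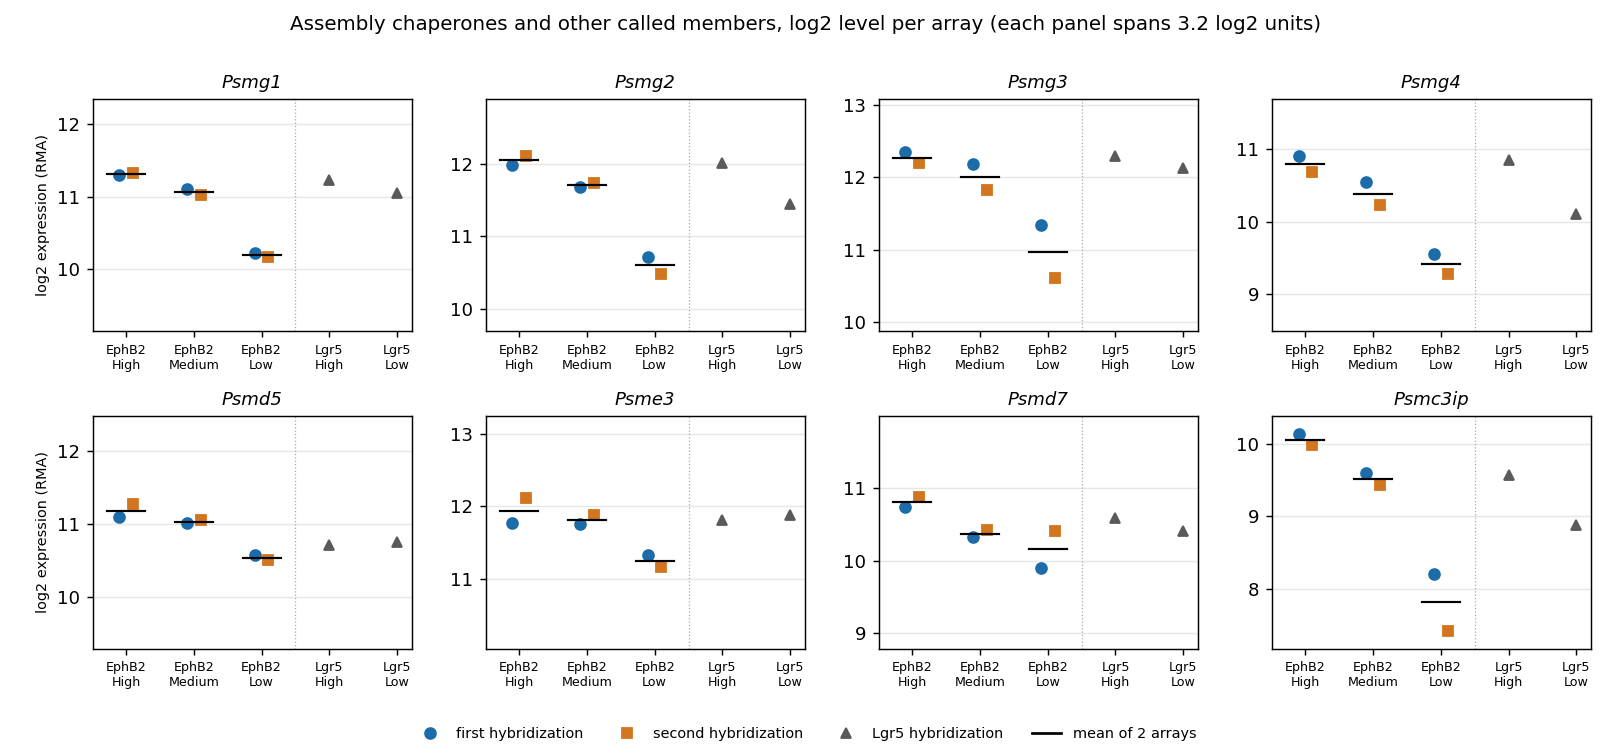
Log2 level of 8 proteasome genes called between EphB2 High and EphB2 Low cells (vertical axis, RMA log2 units, each panel spanning 3.2 units) by sort group (horizontal axis); points are single arrays and bars the mean of 2 arrays. In each of the 4 core chaperones both EphB2 Low arrays lie below all EphB2 High and EphB2 Medium arrays, as Psmg1 shows with 10.23 and 10.17 against 11.03 or more.

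The chaperones of the regulatory base did not move as a group. Psmd5, which holds the base ATPases until the base is complete, was at 11.10 and 11.27 in EphB2 High cells, 11.01 and 11.05 in EphB2 Medium cells, and 10.57 and 10.50 in EphB2 Low cells. It rose by 0.65 ± 0.12 (1.57-fold, limma adjusted p = 0.00788), and the groups did not overlap. Without EphB2 High replicate 2 its adjusted p was 0.0558. Psmd9 differed by 0.24 ± 0.12 (adjusted p = 0.184) and Psmd10 by 0.09 ± 0.15 (adjusted p = 0.684), and neither passed. Pomp, the factor that matures the beta rings, differed by -0.02 ± 0.11 and did not pass either, with an adjusted p of 0.919.

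Of the 14 constitutive core subunits, 2 rose and 12 did not pass, where 22% of all genes rose. Their differences between EphB2 High and EphB2 Low cells lay between -0.07 and 0.53, with a median of 0.16. Psmb5, which carries the chymotrypsin-like site, was at 12.66 and 12.92 in EphB2 High cells, 12.51 and 12.60 in EphB2 Medium cells, and 12.27 and 12.26 in EphB2 Low cells. It rose by 0.53 ± 0.13 (1.44-fold, limma adjusted p = 0.0249), and the 3 groups did not overlap. The alpha subunit Psma7 rose by 0.44 ± 0.12 (1.36-fold, adjusted p = 0.0355). The other cutting subunits did not pass: Psmb6, the caspase-like one, was at 13.41 and 13.41 in EphB2 High cells, 13.33 and 13.31 in EphB2 Medium cells, and 13.29 and 13.25 in EphB2 Low cells, a difference of 0.14 ± 0.10 (adjusted p = 0.36). Psmb7, the trypsin-like one, was at 12.17 and 12.24 in EphB2 High cells, 12.22 and 12.43 in EphB2 Medium cells, and 12.23 and 12.31 in EphB2 Low cells, where the groups overlapped. Psmb7 differed by -0.07 ± 0.12, with an adjusted p of 0.707.

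Of the 17 regulatory particle subunits, 2 rose and 15 missed the threshold, where 22% of all genes rose. Their median difference was 0.28 and their range ran from -0.02 to 0.65. Psmd7, a lid subunit paired with the deubiquitinase Psmd14, was at 10.74 and 10.88 in EphB2 High cells, 10.33 and 10.42 in EphB2 Medium cells, and 9.91 and 10.41 in EphB2 Low cells. It rose by 0.65 ± 0.19 (1.57-fold, limma adjusted p = 0.0395), with the second EphB2 Low array level with EphB2 Medium, and by 0.40 (adjusted p = 0.0923) without EphB2 Low replicate 1. Psmd12, also of the lid, rose by 0.38 ± 0.11 (1.30-fold, adjusted p = 0.0392). None of the 6 ATPases passed, and 3 had an unadjusted p below 0.05, as did 8245 of all 18193 genes. With the hybridization as a block the ATPase Psmc3, at 0.34 ± 0.10, was called too (adjusted p = 0.0464, against 0.051 without the block).

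Small differences in one direction were more common in the particle than calls. Of the 31 core and regulatory particle subunits, 24 had both EphB2 High arrays above both EphB2 Low arrays, against 36.4% of all genes, and 13 had EphB2 High above EphB2 Medium above EphB2 Low in every array, against 17.7% of all genes. Subunits of 1 complex on the same 6 arrays are not independent, so these counts have no test. They also rest on 1 probe set per gene. With the mean of all probe sets the difference turned below 0 for Psma3 (-0.02), Psma6 (-0.06), Psmb1 (-0.05) and Psmc6 (-0.21). It turned above 0 for Psma5 (0.10) and Psmd11 (0.05). The span of a subunit over the 6 EphB2 arrays had a median of 0.28, against 0.65 for all genes. All 14 core subunits had probe sets among the brightest 10% of genes, and 19.9% of those rose and 19% fell. A probe set's brightness also depends on its probes and does not rank genes by abundance. The calls of the 4 subunits that rose depended on the setting. Psma7 was called in 6 of 12 settings, with an adjusted p of up to 0.142, and Psmd12 in 6 (up to 0.146), Psmd7 in 7 (up to 0.169) and Psmb5 in 9 (up to 0.133). Psma7 was lost with the mean of its probe sets and without either EphB2 High or either EphB2 Medium array or EphB2 Low replicate 2, Psmd12 without any 1 of the 6 arrays, Psmd7 without any 1 except EphB2 Low replicate 2, and Psmb5 without EphB2 High replicate 2 or either EphB2 Low array.

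**Figure D2:**
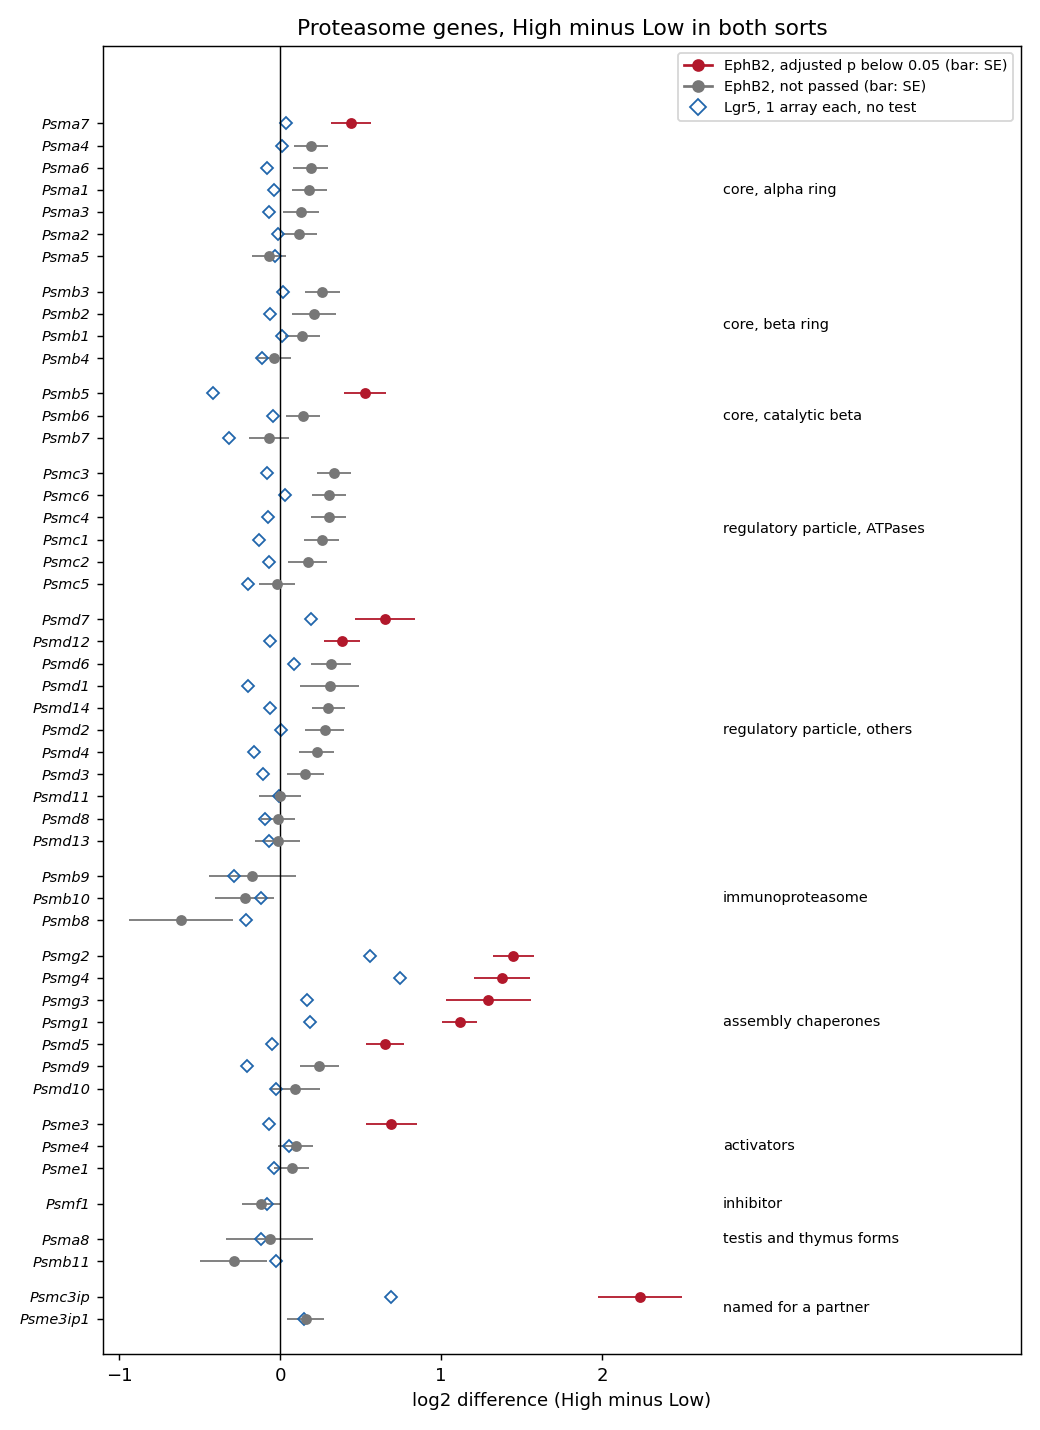
Log2 difference of each proteasome gene, High minus Low (horizontal axis), with genes grouped by role down the page; filled circles with SE bars are the EphB2 sort (red where the adjusted p was below 0.05) and open diamonds the Lgr5 sort with 1 array each. The 4 core chaperones lie between 1.12 and 1.45 in the EphB2 sort, while the core and regulatory particle subunits lie between -0.07 and 0.65.

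Among the activators, which open the core in place of the regulatory particle, 1 of 3 rose, where 22% of all genes rose. Psme3, which forms the activator of the nucleus, was at 11.77 and 12.12 in EphB2 High cells, 11.76 and 11.88 in EphB2 Medium cells, and 11.33 and 11.17 in EphB2 Low cells. It rose by 0.69 ± 0.16 (1.61-fold, limma adjusted p = 0.0177), by 0.44 in the first and 0.95 in the second hybridization, and its other probe sets gave 0.50 and 0.51. The EphB2 High and EphB2 Medium arrays overlapped, and EphB2 Low lay below both. Leaving out the second array of EphB2 High or of EphB2 Low ended the call, with an adjusted p of up to 0.0895.

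Psme1, a subunit of the interferon-inducible activator, was at 13.76 and 13.71 in EphB2 High cells, 13.70 and 13.63 in EphB2 Medium cells, and 13.68 and 13.64 in EphB2 Low cells, a difference of 0.07 ± 0.11 (adjusted p = 0.667). Psme4, a large activator linked to histone breakdown in the testis, was at 12.12 and 12.16 in EphB2 High cells, 12.10 and 12.14 in EphB2 Medium cells, and 12.00 and 12.09 in EphB2 Low cells. It differed by 0.10 ± 0.11 (adjusted p = 0.548) and did not pass. With the mean of its 6 probe sets its difference was -0.34 (adjusted p = 0.212). The inhibitor Psmf1, which binds the core, was at 9.53 and 9.52 in EphB2 High cells, 9.47 and 9.29 in EphB2 Medium cells, and 9.68 and 9.60 in EphB2 Low cells, a difference of -0.12 ± 0.12 (adjusted p = 0.502) that did not pass.

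The immunoproteasome subunits did not pass in any EphB2 comparison, and their values moved with the hybridization. With the hybridization as a block they did not pass either. The limma adjusted p between EphB2 High and EphB2 Low cells was then 0.0723 for Psmb8, 0.319 for Psmb9 and 0.176 for Psmb10. Psmb8, which takes the place of Psmb5, was at 11.84 and 10.97 in EphB2 High cells, 11.85 and 11.27 in EphB2 Medium cells, and 12.07 and 11.97 in EphB2 Low cells. Its difference between EphB2 High and EphB2 Low cells was -0.62 ± 0.32 (limma adjusted p = 0.201), with -0.23 in the first and -1.00 in the second hybridization. All 4 EphB2 High and EphB2 Medium arrays lay below both EphB2 Low arrays, and the second array of each group was the lower one. Without EphB2 High replicate 1 Psmb8 was called lower, at -1.05 with an adjusted p of 0.0498.

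Psmb9, which takes the place of Psmb6, was at 12.08 and 11.43 in EphB2 High cells, 12.21 and 11.77 in EphB2 Medium cells, and 12.09 and 11.76 in EphB2 Low cells. Its difference was -0.17 ± 0.27 (adjusted p = 0.672) with overlapping groups, and it was 0.15 without EphB2 High replicate 2. Psmb10, which takes the place of Psmb7, was at 13.16 and 12.86 in EphB2 High cells, 13.26 and 12.88 in EphB2 Medium cells, and 13.31 and 13.15 in EphB2 Low cells, a difference of -0.22 ± 0.18 (adjusted p = 0.413). Across the 3 genes, the second minus the first array of a group had a median of -0.64 in EphB2 High, -0.44 in EphB2 Medium and -0.16 in EphB2 Low cells. Over the 14 constitutive core subunits the same medians were 0.01 in EphB2 High, 0.03 in EphB2 Medium and 0.01 in EphB2 Low cells.

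Within each array, an immunoproteasome subunit was also set against the constitutive one it replaces, so that only a shift of their difference between groups counts. Psmb8 minus Psmb5 was -0.82 and -1.95 in EphB2 High cells, -0.65 and -1.34 in EphB2 Medium cells, and -0.19 and -0.29 in EphB2 Low cells. The shift between EphB2 High and EphB2 Low was -1.14 (exact permutation test, 2-sided, p = 0.0889, and 0.267 adjusted over the 3 pairs), with -0.63 in the first and -1.66 in the second hybridization. All 4 EphB2 High and EphB2 Medium arrays were below both EphB2 Low arrays. For Psmb9 minus Psmb6 the shift was -0.31 (exact permutation p = 0.378, adjusted 0.567), and for Psmb10 minus Psmb7 it was -0.15 (exact permutation p = 0.622, adjusted 0.622). With 90 arrangements of 6 arrays the smallest p this test can give is 0.0222, so 1 pair alone could not pass after adjustment. The arrangements took no account of the hybridization, so a shift between hybridizations counts as spread in this test.

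**Figure D3:**
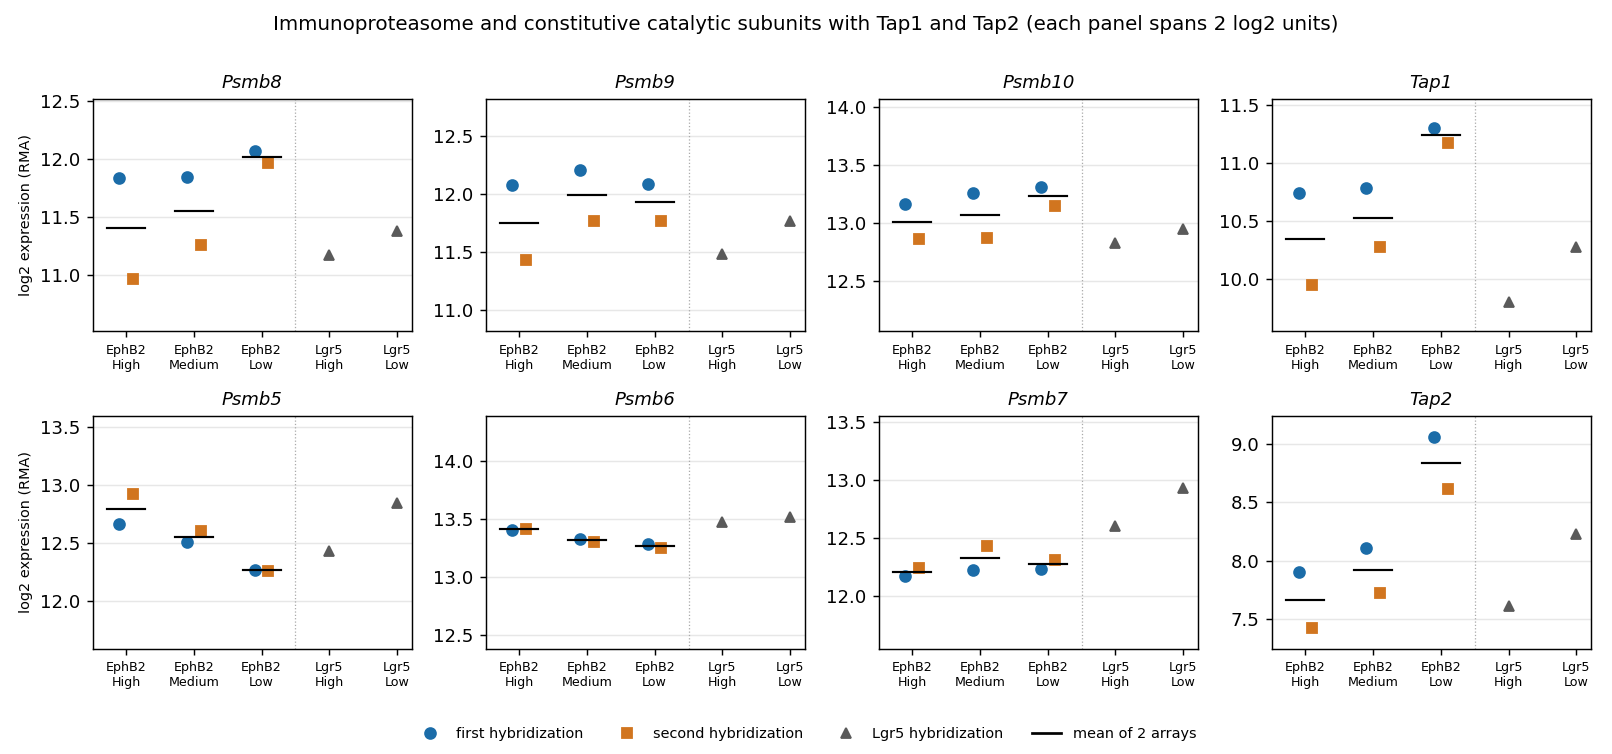
Log2 level (vertical axis, RMA log2 units, each panel spanning 2 units) of the 3 immunoproteasome subunits above the constitutive subunits they replace, with Tap1 and Tap2 at the right, by sort group (horizontal axis); points are arrays and bars means of 2. The second hybridization lies below the first in every group for Psmb8, Psmb9 and Psmb10, as with Psmb8 at 10.97 against 11.84 in EphB2 High cells.

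Genes that serve MHC class I presentation with the immunoproteasome were lower in EphB2 High cells where they passed. Of 13 measured, 3 fell and 10 missed the threshold, where 15.3% of all genes fell. Their median difference was -0.34. Tap2, the partner of Tap1 in the peptide transporter, was at 7.90 and 7.42 in EphB2 High cells, 8.11 and 7.72 in EphB2 Medium cells, and 9.07 and 8.61 in EphB2 Low cells, and fell by 1.18 on the log2 scale (SE 0.25, limma adjusted p = 0.0131). The class I heavy chains H2-D1 (-0.49 ± 0.12, adjusted p = 0.0228) and H2-K1 (-0.43 ± 0.11, adjusted p = 0.0247) fell as well. Tap1 differed by -0.89 ± 0.30 (adjusted p = 0.0634), and with the hybridization as a block it was called lower (adjusted p = 0.0186). The 3 calls became 0 on leaving out EphB2 High replicate 2 or EphB2 Low replicate 1, became 1 on leaving out EphB2 Low replicate 2, and became 6 under limma's variance trend.

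Lymphocytes hold the immunoproteasome, and their markers were examined beside these values. Of 13 measured lymphocyte markers, 3 fell (Cd3d, Cd52 and Gzma), 1 rose (Cd79b) and 9 did not pass. Their summed signal on the linear scale was 483.3 and 386.3 in EphB2 High, 496.4 and 426.8 in EphB2 Medium and 535.5 and 452.2 in EphB2 Low cells (first and second hybridization). Within each EphB2 hybridization the sum was lowest in EphB2 High, intermediate in EphB2 Medium and highest in EphB2 Low cells. Psmb8, Psmb10 and Tap2 also had this order, and Psmb9 did not. The order of the sum rests on Cd52, at 5.33 and 5.03 in EphB2 High and 6.94 and 6.86 in EphB2 Low cells. Cd79b, the brightest of these markers in EphB2 High cells, went the other way, with 7.62 and 7.07 against 6.56 and 6.15. In every EphB2 group the summed signal was lower in the second hybridization, as were Psmb8, Psmb9, Psmb10 and Tap2. The Lgr5 arrays did not share the order of the sum. There the summed signal was higher in Lgr5 High (549.5) than in Lgr5 Low cells (449.8). That gap rests on 1 marker, Gzma, at 7.05 against 4.04. Psmb8 (11.17 against 11.38) and Tap2 (7.61 against 8.23) were lower in Lgr5 High cells. Ptprc, the pan-leukocyte marker, was at a log2 level between 3.40 and 4.03 on all 8 arrays, near the dim end of the array. Of 9 myeloid markers 1 rose (Cd68) and none fell. Their summed signal was 534.3 and 417.6 in EphB2 High, 525.9 and 371.5 in EphB2 Medium and 368.3 and 279.3 in EphB2 Low cells. Within each hybridization this sum was highest in EphB2 High cells. That rank rests on Cd68, at 8.42 and 7.75 in EphB2 High and 7.05 and 6.24 in EphB2 Low cells. Across all 9 markers the median difference between EphB2 High and EphB2 Low cells was -0.12. The part of lymphocytes or myeloid cells in the values of Psmb8 and Tap2 was not tested.

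Between EphB2 Medium and EphB2 Low cells, the core chaperones again had the largest differences among proteasome components. Of the 49 genes, 7 rose and none fell, against 14.6% and 10.1% of all genes. No other of the 49 had an unadjusted p below 0.05, where 6654 of all 18193 genes had one. With the hybridization as a block 6 rose, against 16.3% of all genes. The 7 were the 4 core chaperones, with Psmd5, Psme3 and Psmc3ip. This comparison shares its EphB2 Low arrays with the one before, so the lists are not independent. Psmg2 rose by 1.11 ± 0.13 (2.16-fold, limma adjusted p = 0.00527) and Psmg1 by 0.87 ± 0.11 (1.83-fold, adjusted p = 0.0062). Psmg3 rose by 1.03 ± 0.26 (2.05-fold, adjusted p = 0.0375) and Psmg4 by 0.97 ± 0.18 (1.96-fold, adjusted p = 0.0143). Psmg3 was called in 6 of 12 settings: with the mean of its probe sets its difference was 0.11 (adjusted p = 0.766), without EphB2 Low replicate 2 it was 0.67 (adjusted p = 0.103), and the call was also lost without either EphB2 High or either EphB2 Medium array. Psmg4 was at 0.59 with the mean of its probe sets (adjusted p = 0.0128) and was lost without EphB2 Medium replicate 1 or EphB2 Low replicate 2, with an adjusted p of up to 0.0709, and Psmc3ip without either EphB2 Medium array. Psmd5 rose by 0.49 ± 0.12 (adjusted p = 0.031) and Psme3 by 0.57 ± 0.16 (adjusted p = 0.049), of which Psme3 was not called with the hybridization as a block (adjusted p = 0.0551). Psmd5 was lost on leaving out any 1 of the 6 arrays, and Psme3 with the mean of its probe sets or without either EphB2 Medium or either EphB2 Low array. None of the 31 core and regulatory particle subunits passed with limma or had an unadjusted p below 0.05, while limma's variance trend called 4 (Psma7, Psmb3, Psmc3 and Psmd14). The count of 7 became 2 without EphB2 Medium replicate 1, 3 without EphB2 Medium replicate 2 or EphB2 Low replicate 2, and 11 with the variance trend, and Psmg1 and Psmg2 were called in all 12 settings.

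Between EphB2 High and EphB2 Medium cells, limma called none of the 49 genes, against 1.36% of all genes. An unadjusted p below 0.05 was found for 1 of the 49 (Psmg2, at 0.34 ± 0.13, adjusted p = 0.327) and for 2579 of all 18193 genes. The variance trend and the other alternatives called none either. All 17 regulatory particle subunits had a difference above 0, as did 9999 of all 18193 genes. Their median was 0.09, against 0.03 over all genes, with a highest value of 0.43 for Psmd7, and none passed. In this comparison the sign turned under at least 1 alternative for 24 of the 49 genes. With the mean of all probe sets it did so for Psmc6 (-0.10) and Psmd2 (-0.03), among others. The immunoproteasome subunits were at -0.15 for Psmb8, -0.23 for Psmb9 and -0.06 for Psmb10, within their SE.

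Between Lgr5 High and Lgr5 Low cells, with 1 array each and no test, 2 of 49 genes were at least 1.5-fold higher and none lower, against 6.95% and 10.8% of all genes. Psmg4 was at 10.85 in Lgr5 High and 10.11 in Lgr5 Low cells, a difference of 0.74. Psmc3ip was at 9.56 in Lgr5 High and 8.88 in Lgr5 Low cells, a difference of 0.69. Of the other core chaperones, Psmg2 was just short of the threshold with 12.01 against 11.45, a difference of 0.56, and Psmg1 and Psmg3 differed by 0.19 and 0.17. On the probe sets used, all 4 core chaperones were thus higher in the Lgr5 High array. In it 34 of the 49 genes (69.4%) were lower, against 55.6% of all genes. The other probe sets gave -0.31 for Psmg3, 0.52 and -0.01 for Psmg2, and 0.44 for Psmg4.

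The 31 core and regulatory particle subunits had a median difference of -0.06 and a range from -0.42 to 0.19, and 23 (74.2%) were below 0. Over all genes the median was -0.05, and 55.6% were below 0. Psmb5 was at 12.43 in Lgr5 High and 12.85 in Lgr5 Low cells, the lowest difference among the 49 genes, at -0.42. Psmb7 was at 12.61 in Lgr5 High and 12.93 in Lgr5 Low cells. The immunoproteasome subunits differed by -0.12 to -0.29 between the Lgr5 arrays: Psmb8 was at 11.17 against 11.38, Psmb9 at 11.48 against 11.77 and Psmb10 at 12.83 against 12.95 in Lgr5 Low cells. Psme3 was at 11.81 and 11.88, Psme1 at 13.59 and 13.63, Psme4 at 12.04 and 11.99, and Psmf1 at 9.44 and 9.53 in Lgr5 High and Lgr5 Low cells.

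The genes of tissue-restricted forms and those named for a partner were described apart. Psma8, an alpha subunit of the testis, and Psmb11, the subunit of the thymic cortex, had log2 levels between 3.37 and 4.27 on all 8 arrays and did not pass in any comparison. Psmc3ip, a factor of meiotic recombination named for binding Psmc3, was at 10.13 and 9.97 in EphB2 High cells, 9.59 and 9.43 in EphB2 Medium cells, and 8.21 and 7.42 in EphB2 Low cells. It rose by 2.23 ± 0.26 (4.71-fold, limma adjusted p = 0.0019), the largest difference of the 49, and its second probe set also gave 2.23. Psme3ip1, named for binding Psme3, differed by 0.16 ± 0.11 (adjusted p = 0.341). Both EphB2 Low arrays of Psmc3ip lay below all others.

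**Figure D4:**
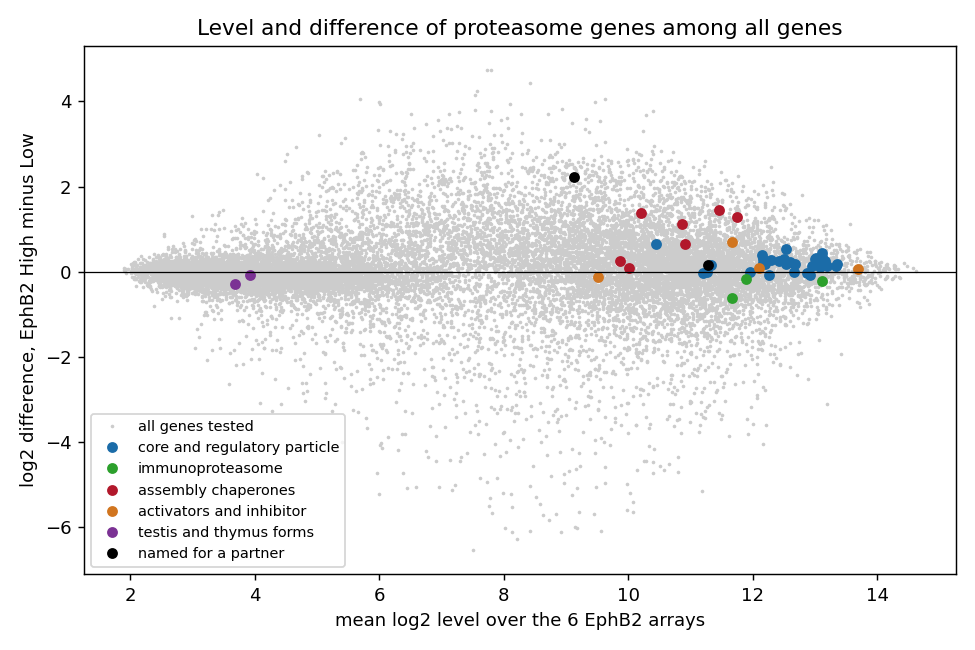
Log2 difference between EphB2 High and EphB2 Low cells (vertical axis) against the mean log2 level over the 6 EphB2 arrays (horizontal axis) for all 18193 genes (grey) and the proteasome genes, coloured by role. The core and regulatory particle subunits form a tight group between -0.07 and 0.65, the core chaperones lie above them, and the testis and thymus forms lie at the dim end.

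Proteins that work on or beside the proteasome were read from fixed lists. Of 16 measured associated factors, 5 rose and none fell, against 22% and 15.3% of all genes, and their median was 0.17. They were the shuttle receptors Ubqln2 (0.69 ± 0.11, limma adjusted p = 0.0047) and Ubqln4 (0.70 ± 0.14, adjusted p = 0.011), the deubiquitinases Uchl5 (0.58 ± 0.12, adjusted p = 0.0111) and Usp14 (0.57 ± 0.13, adjusted p = 0.0182), and Txnl1 (0.43 ± 0.11, adjusted p = 0.0258), a thioredoxin-like protein of the regulatory particle. Leaving out EphB2 High replicate 1 or EphB2 Low replicate 2 reduced these calls to 3, and leaving out EphB2 High replicate 2 to 1. Of the ubiquitin genes 1 of 6 was measured, the activating enzyme Uba6, which rose by 0.43 ± 0.10 (adjusted p = 0.0213) and was lost without any 1 of the EphB2 High and EphB2 Low arrays or with the mean of its probe sets.

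Nfe2l1, the transcription factor that raises proteasome genes when the protease is inhibited, differed by -0.20 ± 0.11 (adjusted p = 0.218) and did not pass. Ngly1, the enzyme that removes sugars from Nfe2l1 and so activates it, was at 10.33 and 10.31 in EphB2 High cells, 10.63 and 10.66 in EphB2 Medium cells, and 10.97 and 11.16 in EphB2 Low cells. It fell by 0.74 on the log2 scale (SE 0.12, limma adjusted p = 0.00513). The related factor Nfe2l2, a regulator of antioxidant genes, fell by 0.44 (SE 0.11, adjusted p = 0.0251), and the related factor Nfe2l3 rose. Nfe2l3 was at 7.63 and 7.78 in EphB2 High cells, 6.96 and 7.04 in EphB2 Medium cells, and 6.13 and 5.72 in EphB2 Low cells, a difference of 1.77 ± 0.16 (adjusted p = 0.00104). It was also higher by 0.92 in the Lgr5 High than in the Lgr5 Low array. Members of this list that passed thus moved in opposite directions.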

How the data were processed

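Microarray values were used for 8 samples of sorted crypt cells. Per the labels' protocols, 25 ng of total RNA per sample was amplified isothermally and hybridized to Affymetrix mouse arrays. The deposited table holds log2 values made by the authors with RMA, per the submitters' processing notes. The RMA version, and whether the 8 arrays were normalized together, are not given in the sources used here. Array medians lay between 6.12 and 6.20, and the number of arrays limits the precision.

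Of 45101 probe sets, 34945 named 1 gene, 932 named several and were left out, and 64 were controls. For each of 18193 genes the single-gene probe set of highest mean on the EphB2 arrays was used. Of the 49 members, 27 had several probe sets and 22 had 1. The test was limma 3.58.1 (R 4.3.3; lmFit, contrasts.fit, eBayes, 2-sided). The fit used the 6 EphB2 arrays and no term but group, with 3 residual degrees of freedom. No dim probe set was removed. The code was tested on simulated data. The Lgr5 arrays have no replicate and were compared by a fold of 1.5. Same-numbered EphB2 arrays share a hybridization per the labels, and their deviations from the group means correlated at 0.45 (EphB2 High and Medium), 0.13 (High and Low) and 0.21 (Medium and Low).

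Values in every array are given for the immunoproteasome and cutting subunits, the activators, the inhibitor and the 5 called members of largest difference in each EphB2 comparison and direction, and up to 4 members of each list with the smallest p were to be named. Values by array of Psmd5, Psmd7, Ngly1 and Nfe2l3, and the names Pomp, Txnl1 and Ptprc, go beyond this rule and were chosen after their values were seen. Members and lists were chosen with earlier results of these data known. Alternatives were the hybridization as a block, each array left out, genes with a mean below 5 left out, quantile normalization again, the mean of all probe sets, limma's variance trend and, for the Lgr5 arrays, a fold of 2.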

Additional observations from a re-analysis of the deposited data

Results flagged for a closer look

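Psmb5, the chymotrypsin-like subunit of the constitutive core, ran in opposite directions in the EphB2 and Lgr5 sorts. It was higher in EphB2 High than in EphB2 Low cells by 0.39 in the first and 0.66 in the second hybridization, whereas it was lower in the Lgr5 High than in the Lgr5 Low array, with a log2 difference of -0.42. The difference between the sorts was not tested, since the Lgr5 groups hold 1 array each. The sorts also differed in hybridization and in Paneth cell markers. The 5 measured Paneth cell markers had a median High minus Low difference of 2.15 in the EphB2 sort and -0.53 in the Lgr5 sort. Among them Defa3 was higher in both, by 2.40 and 0.44. The part of either in the values of Psmb5 was not tested.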

How the results depend on the processing

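With the replicate block (the hybridization number), 12 of the 49 genes were called between EphB2 High and EphB2 Low cells, against 11 without it, and 6 between EphB2 Medium and EphB2 Low cells, against 7. Apart from Psmc3 in the first comparison and Psme3 in the second, the block changed no call of a proteasome gene. With limma's variance trend, 22 genes were called in the first comparison and 11 in the second. Leaving out 1 array gave between 4 and 8 calls in the first and between 2 and 5 in the second, and in these fits 1 group rests on a single array that is assumed to vary like the others. With a fold of 2, 0 genes passed between the Lgr5 arrays. Between EphB2 High and EphB2 Low cells the sign turned under at least 1 alternative for 15 of the 49 genes, none of which was called without an alternative or where its sign turned. Among those with values above were Psme4 (-0.34) and Psmd9 (-0.14) with the mean of all probe sets, Psmb9 without EphB2 High replicate 2 (0.15) and Psmd10 without EphB2 Low replicate 1 (-0.0898). Leaving out 1 array moved Psmb9 between -0.50 and 0.15 and Psmd10 between -0.0898 and 0.277. Psmg1, Psmg2, Psmg4 and Psmc3ip were called in all 12 settings between EphB2 High and EphB2 Low cells, and Psmg1 and Psmg2 in all 12 between EphB2 Medium and EphB2 Low. The 3 differences between immunoproteasome and constitutive subunits kept their direction and missed the threshold after quantile normalization and with the mean of all probe sets. Signal limits what can be said of Psma8 and Psmb11, which lay at the dim end. Where a value changed with a setting, the cause was not tested.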
